A study of Mus musculus with 4 samples.

Results

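The genes described here are the protein-coding semaphorins (classes 3 to 7), plexins, ephrins, Eph receptors, Slits, Robos, netrins and Unc5 receptors of mouse brain endothelial cells, chosen by gene symbol from the deposited read counts. The rule found 51 genes among the 17905 listed in either table: 16 semaphorins, 8 plexins, 7 ephrins, 11 Eph receptors, 4 Slits and Robos, and 5 netrins and Unc5 receptors. Of these, 43 were listed for all 4 libraries, 5 for STING ECKO 1 and WT 3 alone, and 3 for STING ECKO 2 and WT 5 alone. A further 2 matching symbols were antisense RNAs and were left out, and family genes outside the 51 were not analysed here.

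The cells were labelled endothelial cells of brain from C57BL/6 embryos at embryonic day 18. The genotypes were STING ECKO, with 2 libraries (STING ECKO 1 and 2), and wild type, also with 2 (WT 3 and 5), and no treatment was labelled. ECKO commonly stands for endothelial cell knockout, and STING is the adaptor of cytosolic DNA sensing encoded by Tmem173. The labels name neither the Cre driver nor the deleted exons, and they do not say whether the libraries of a genotype came from separate embryos, so p-values measure the spread between these libraries, which may be technical. Levels are CPM, reads scaled to a common library total after scaling by trimmed mean of M-values (TMM), and each comparison below asks whether a gene differed between STING ECKO and WT.

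Guidance genes encode ligands and receptors that were first known for steering axons and that also steer growing blood vessels. Semaphorins signal through plexins, the secreted class 3 together with neuropilins; ephrins signal to Eph receptors on the neighbouring cell and can also signal back into the cell that carries them. Slits bind Robo receptors and netrins bind DCC and Unc5 receptors. In vessels, Plxnd1 restrains sprouting, Efnb2 and Ephb4 mark arteries and veins, and Robo4 and Unc5b are receptors largely found on endothelium.

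The libraries held 18610298 to 22169261 listed reads. Tmem173 had 67 (STING ECKO 1), 182 (STING ECKO 2), 97 (WT 3) and 130 (WT 5) reads, so it did not separate the labels, and the exons counted may lie outside the deleted part. The 16 endothelial markers summed to 32459 and 30312 CPM in the STING ECKO libraries and 32512 and 31965 in those of WT, none at 0 reads. Sums of 10 pericyte and smooth muscle markers were 10184 and 10651 CPM against 8304 and 7700, those of 13 neuron markers 110 and 43.8 against 207 and 127, those of 11 astrocyte and radial glia markers 395 and 292 against 496 and 396, and those of 12 microglia and macrophage markers 548 and 419 against 552 and 1349. Sums of 5 oligodendrocyte markers were 36.7 and 11.2 against 27.2 and 25.5 CPM, of 7 fibroblast markers 311 and 305 against 251 and 225, and of 6 erythroid markers 1229 and 2853 against 2516 and 1314. Gja1 held most of the astrocyte and radial glia sum in every library, so this sum says little about the other markers of that list. The same holds for Rgs5 in the pericyte and smooth muscle sum, and for Cldn5 and Slc2a1 together in the endothelial sum. STING ECKO 2 stood apart with 13.2% of all genes at 0 reads, against 2.39% to 5.25% in the other libraries. Xist had 0 reads in STING ECKO 1 and 876 to 3374 in the others, and the Y-linked Ddx3y had 3623 reads in STING ECKO 1 and 0 in WT 3. Sex thus differs within STING ECKO, and between STING ECKO 1 and both WT libraries.

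Sequence just before the gene start is shown for the 3 genes with the highest mean CPM, since Robo4, Plxnd1 and Unc5b together with Sema6a, Sema6d and Ephb4 held 81.5% to 84.0% of the reads of the 43 genes in every library. The windows are from RefSeq's GRCm38.p6 table, 5′ to 3′ on the gene's strand, and end before the start that the deposited tables give. Robo4 is shown for chr9:37401722-37401896 (plus strand, 175 bases), Plxnd1 for chr6:115995006-115995255 (minus strand, 250 bases) and Unc5b for chr10:60831582-60831831 (minus strand, 250 bases). Capitals mark GGGCGG or its reverse complement, the box of Sp and Klf factors.
Robo4: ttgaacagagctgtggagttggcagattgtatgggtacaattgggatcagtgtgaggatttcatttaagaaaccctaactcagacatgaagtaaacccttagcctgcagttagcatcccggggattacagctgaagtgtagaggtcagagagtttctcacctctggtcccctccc
Plxnd1: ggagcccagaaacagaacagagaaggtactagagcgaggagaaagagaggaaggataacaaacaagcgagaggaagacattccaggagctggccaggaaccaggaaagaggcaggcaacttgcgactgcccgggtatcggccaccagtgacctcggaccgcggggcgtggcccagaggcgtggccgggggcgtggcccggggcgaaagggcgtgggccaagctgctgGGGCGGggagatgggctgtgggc
Unc5b: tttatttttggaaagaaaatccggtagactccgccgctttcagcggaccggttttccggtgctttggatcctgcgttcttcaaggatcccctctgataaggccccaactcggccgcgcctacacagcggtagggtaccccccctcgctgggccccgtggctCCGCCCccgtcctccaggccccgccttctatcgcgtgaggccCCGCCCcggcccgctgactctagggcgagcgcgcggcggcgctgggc
The Robo4 window held no box and was 47.4% G and C, while the Plxnd1 window held 1 box and the Unc5b window 2, at 64.8% and 66.8% G and C. Over the 300 bases that RefSeq's table gives around a start, 44 of the 51 genes were matched and 33 (75.0%) had GGGCGG on either strand in at least 1 window, as did 69.6% of 9345 matched coding genes of both tables and 35.7% of all 32851 windows. The letters CGGAAG, an ETS core with its flank, were in 5 of the 44 genes (11.4%: Efna1, Epha3, Ephb6, Plxnb1 and Sema4a), in 35.2% of the coding genes and in 16.9% of all windows. The forkhead letters GTAAACA were in 0 of the 44, 3.07% of the coding genes and 3.65% of all windows. GGGCGG and CGGAAG can share the letters CGG, and a gene with several starts had several chances to match. Counted by window, GGGCGG was in 41 of the 59 windows of the guidance genes (69.5%) and CGGAAG in 5 (8.47%). The 44 genes include some listed in 1 table, such as Epha3 and Ephb6, unlike the 9345 coding genes.

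Guidance receptors were led by endothelial genes. Per kilobase of exon (GENCODE M21), Robo4 had the highest level of the 43 genes, with 109 (STING ECKO 1), 104 (STING ECKO 2), 172 (WT 3) and 155 (WT 5) CPM per kb. Plxnd1 followed with 73.1, 117, 86.7 and 62.8 CPM per kb in the same order of libraries, and Unc5b with 72.4, 85.7, 78.1 and 58.1. The ranges of Plxnd1 and Unc5b overlapped each other. Efna1 (42.1 to 74.2 CPM per kb), Ephb4 (37.1 to 86.3), Sema6a (35.7 to 54.8) and Sema6d (28.7 to 36.8) came next, and the following gene, Epha4, had a mean of 5.84. These 7 genes were thus at 28.7 CPM per kb or more in every library, and the means of all others were at most 5.84.

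**Figure D1:**
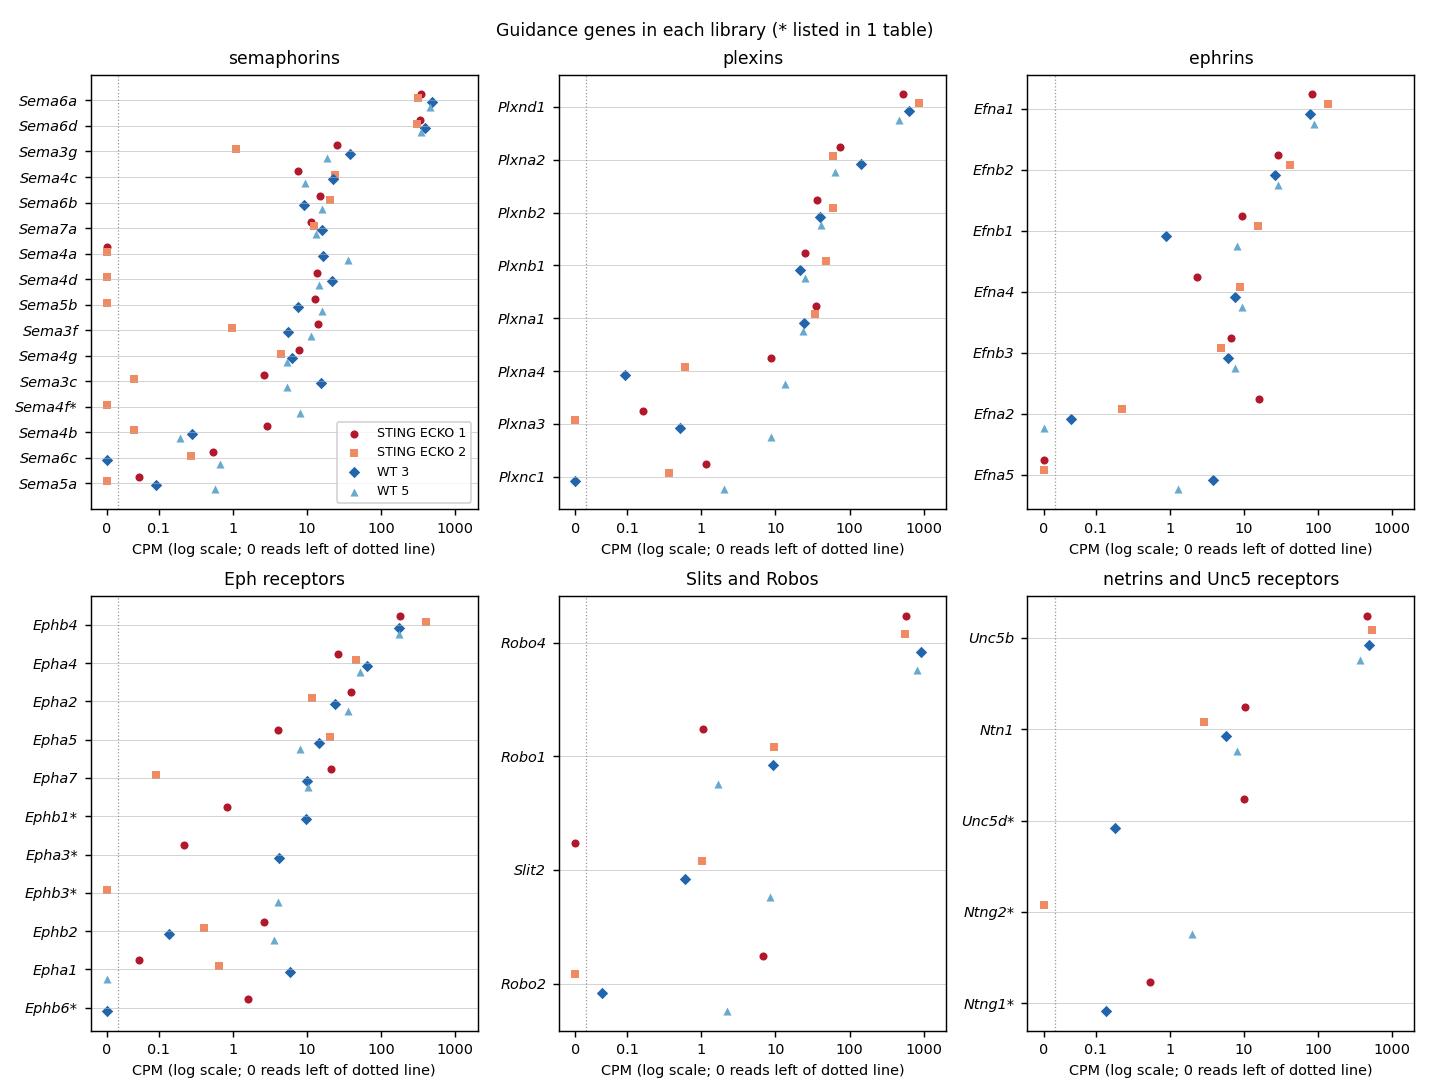
Level of each of the 51 genes in each library, as CPM on a log axis with 1 panel per family; symbols are single libraries, points left of the dotted line had 0 reads, and an asterisk marks genes listed in 1 table. Robo4, Plxnd1, Unc5b, Sema6a, Sema6d and Ephb4 lie at 172 CPM or more in all 4 libraries, and the points of genes below 20 CPM lie farther apart.

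None of the guidance genes differed between the genotypes past the test's threshold. After Benjamini-Hochberg adjustment, the quasi-likelihood test of edgeR called 0 of the 40 that passed the filter on low counts, where it called 0 of 13365 genes in all (0%), and the smallest adjusted p was 0.977 for both. At an unadjusted p under 0.05 there were 4 of 40 (Sema4a, Robo4, Efna5 and Sema6a, all lower in STING ECKO), beside 642 of all genes (4.8%). DESeq2 called 1 of the 40, Sema4a, and 87 of 12587 genes with an adjusted p (0.691%). The edgeR likelihood ratio test also called Sema4a alone, and 33 of all genes (0.247%). The genotypes did not overlap in 15 of 40 genes, 5 higher and 10 lower in STING ECKO, beside 34.4% of all genes tested, 15.4% higher and 19% lower. The median log2 fold change of the 40 was -0.21, with 24 below 0, and that of all genes tested -0.03, with 51.8% below 0. Efna2, Sema4b and Sema5a, listed in both tables, did not pass the filter.

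**Figure D2:**
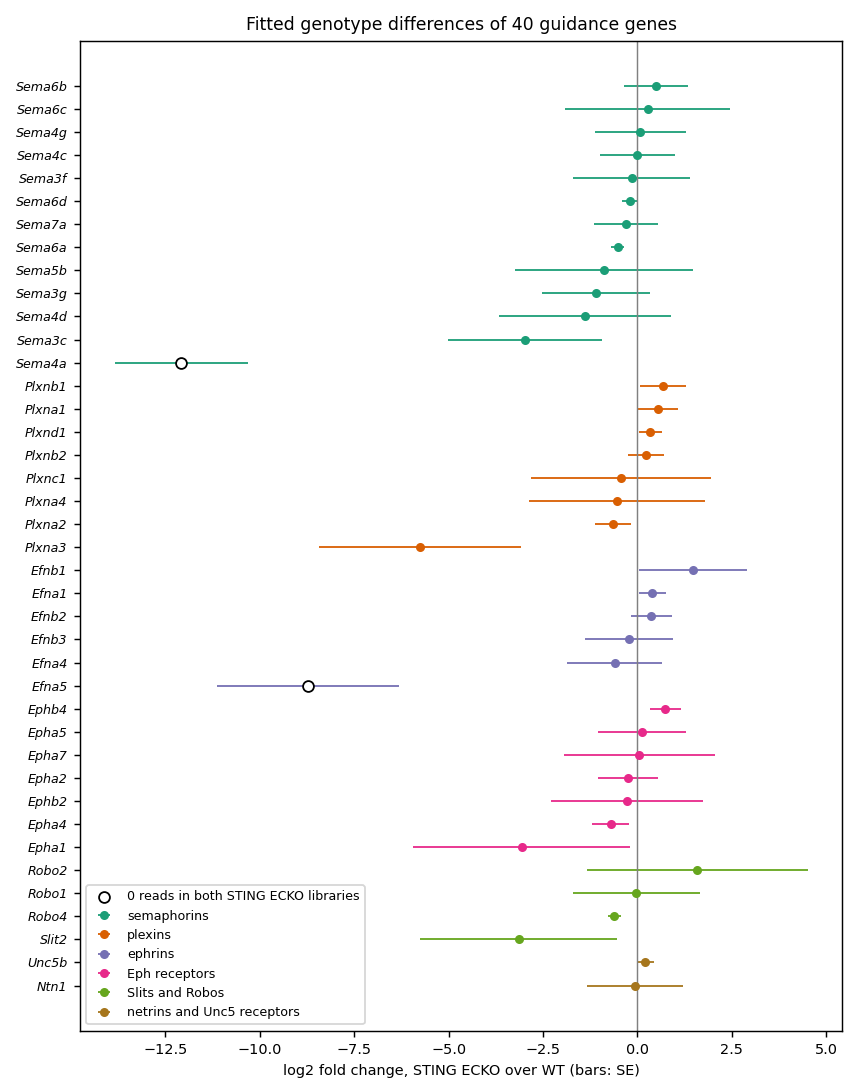
Fitted log2 fold change of STING ECKO over WT for the 40 genes that passed the filter, ordered by family; bars are standard errors from the edgeR quasi-likelihood fit. White points mark Sema4a and Efna5, with 0 reads in both STING ECKO libraries, where the fitted value depends on the prior count; Robo4, Sema6a and Sema6d have the shortest bars among genes below 0.

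Among the ligands, the transmembrane semaphorins Sema6a and Sema6d had the highest CPM. Per kilobase of exon, the mean of Efna1 was higher (52.5 CPM per kb, against 45.5 for Sema6a and 32.6 for Sema6d), though its range overlapped that of Sema6a. Sema6a, a ligand of A-type plexins (ENSMUSG00000019647, GRCm38 chromosome 18, 47235598 to 47368870, minus strand), was at 342 CPM (STING ECKO 1), 314 (STING ECKO 2), 481 (WT 3) and 462 (WT 5). Both STING ECKO libraries lay below both WT libraries, and the spread within a genotype was small beside the gap: 328 ± 19.9 CPM against 472 ± 13.9 (SD, n = 2 each). Its log2 fold change was -0.53 (SE 0.18), which did not pass (adjusted p = 0.977, edgeR quasi-likelihood test). Sema6d, which binds Plxna1 (ENSMUSG00000027200, chromosome 2, 124089969 to 124667770, plus strand), was at 337 and 303 CPM against 389 and 349. The genotypes did not overlap, though STING ECKO 1 lay close to WT 5, with a log2 fold change of -0.20 (SE 0.20). Sema6b was at 15.0 and 20.1 CPM in the STING ECKO libraries and 9.02 and 15.9 in those of WT, overlapping, and Sema6c had at most 14 reads in any library.

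Sema4a was listed at 0 reads in both STING ECKO libraries. This transmembrane semaphorin, known from immune cells, retina and endothelium (ENSMUSG00000028064, chromosome 3, 88435959 to 88461182, minus strand), had 353 reads in WT 3 and 745 in WT 5, or 16.3 and 35.9 CPM. Over a floor of 3 reads per library it was at least 174-fold lower in STING ECKO, a bound on counting error alone. Its unadjusted p was 0.00207 and its adjusted p 0.977 in the edgeR quasi-likelihood test, and its adjusted p was 2.74e-06 in DESeq2 and 0.000315 in the edgeR likelihood ratio test. Among genes under 20 CPM, the share at 0 reads was 25.4% for STING ECKO 2, 5.24% for STING ECKO 1, 10.3% for WT 3 and 4.70% for WT 5. Of the 12 microglia and macrophage markers, 10 had a log2 fold change below 0, beside 51.8% of all genes tested, while C1qc (1.03) and P2ry12 (1.20) were above it. The 12 markers summed to 548 and 419 CPM in the STING ECKO libraries and 552 and 1349 in those of WT, with WT 5 alone high. Ptprc, with 65 and 0 reads against 119 and 334, was the only one at 0 in any library. The part of other cells or of lost transcripts in the Sema4a difference was not tested.

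The other class 4 semaphorins showed no common direction. Sema4d, the ligand of Plxnb1, was at 13.7 and 0 CPM in the STING ECKO libraries and 21.6 and 14.3 in those of WT, so the genotypes did not overlap and STING ECKO 2 alone was at 0 reads. Sema4c, a ligand of Plxnb2, was at 7.63 and 23.7 CPM against 22.1 and 9.26, the order turning between the tables. Sema4g was even over the libraries, at 4.48 to 7.85 CPM. Sema4b reached 53 reads in STING ECKO 1 but at most 6 elsewhere, and Sema4f, listed in the second table alone, 0 reads in STING ECKO 2 and 167 in WT 5.

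The secreted class 3 semaphorins had their lowest level in STING ECKO 2. Sema3g, made by arterial endothelium, was at 25.4 and 1.10 CPM in the STING ECKO libraries and 37.6 and 18.7 in those of WT, from 466, 24, 813 and 388 reads. Sema3f, which signals through Nrp2, was at 14.2 and 0.960 CPM against 5.46 and 11.4. Sema3c, a ligand with roles in the outflow tract and in axon guidance (ENSMUSG00000028780, chromosome 5, 17574281 to 17730268, plus strand), had 48 and 1 reads, against 337 and 112 for WT, and its genotypes did not overlap, with a log2 fold change of -2.98 (SE 2.04) that did not pass (adjusted p = 1.00, edgeR quasi-likelihood test). Leaving out STING ECKO 1 moved that value to -7.67 and leaving out STING ECKO 2 to -1.99; it was -4.57 in limma-voom and -4.46 with the block by deposited table, none past the threshold. STING ECKO 2 was the lowest library for all 3, as it was for 8 of the 13 semaphorins tested. Over all genes tested it was the lowest for 5257 of 13365, and for 2915 of the 6436 under 20 CPM. Sema5b had 234 and 0 reads against 164 and 330, and Sema5a at most 12 in any library. Sema7a, anchored by a lipid and bound by Plxnc1, was at 11.3 and 12.3 CPM against 15.9 and 13.3, all 4 within a factor of 1.41.

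Among the plexins, Plxnd1 dominated. This receptor for Sema3e (ENSMUSG00000030123, chromosome 6, 115954811 to 115995005, minus strand) was at 534 and 852 CPM in the STING ECKO libraries and 633 and 459 in those of WT, from 9511 to 18636 reads. The genotypes overlapped, and the largest value was in STING ECKO 2; the log2 fold change was 0.34 (SE 0.30). Plxna2, a receptor for Sema6a, was at 73.9 and 58.8 CPM against 143 and 63.7, with WT 3 alone standing high; its log2 fold change was -0.64 (SE 0.48), and 0.06 without WT 3. Plxna1, a receptor for Sema6d (chromosome 6, 89316314 to 89362620, minus strand), was at 34.8 and 34.0 CPM against 24.0 and 23.4. Its libraries paired closely within each genotype, 34.4 ± 0.535 against 23.7 ± 0.459 CPM (SD, n = 2 each), while the fitted log2 fold change of 0.54 had an SE of 0.55 and did not pass (adjusted p = 1.00, edgeR quasi-likelihood test). An antisense gene, Gm26811, overlaps 10.7% of its exon bases, and without a stated strand setting reads of the pair cannot be told apart.

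The B-type plexins were highest in STING ECKO 2. Plxnb1 was at 25.1 and 48.4 CPM in the STING ECKO libraries and 21.2 and 24.7 in those of WT, and Plxnb2 at 36.1 and 58.8 against 40.1 and 40.8. STING ECKO 1 lay beside the WT libraries for both. Their log2 fold changes were 0.68 (SE 0.62) and 0.23 (SE 0.48). Plxna3, which is X-linked, had 3 and 0 reads in the STING ECKO libraries and 11 and 181 in those of WT. WT exceeded STING ECKO 60.8-fold (counting interval 20.5 to 297), and WT 5 carried this difference. Plxna4 had 161 and 13 reads against 2 and 279, with the higher library of each genotype near the other genotype's, and Plxnc1 had 0 to 42.

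**Figure D3:**
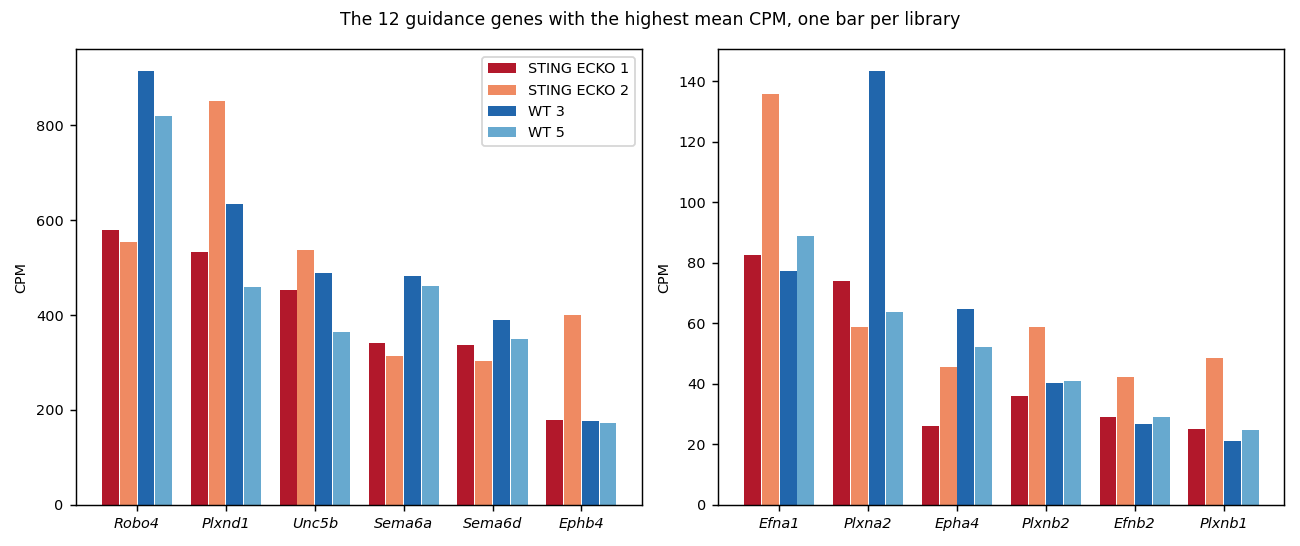
CPM of the 12 guidance genes with the highest mean over the libraries, 1 bar per library, the 6 highest on the left and the next 6 on the right with their own axis. Robo4 and Sema6a are lower in both STING ECKO libraries than in both WT libraries, and the tall bars of Plxnd1, Ephb4, Efna1 and Plxnb1 belong to STING ECKO 2.

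Ephrins and Eph receptors were led by the venous receptor Ephb4 and by Efna1. Ephb4 (ENSMUSG00000029710, chromosome 5, 137350109 to 137378669, plus strand) was at 179 and 400 CPM in the STING ECKO libraries and 176 and 172 in those of WT. STING ECKO 2 stood alone and the other 3 libraries lay close together; the log2 fold change was 0.74 (SE 0.41) with all libraries and 0.05 without STING ECKO 2. Efnb2, its arterial partner (ENSMUSG00000001300, chromosome 8, 8617434 to 8661242, minus strand), was at 29.2 and 42.2 CPM against 26.5 and 28.9. Here too STING ECKO 2 was high and STING ECKO 1 lay beside WT 5, with a log2 fold change of 0.37 (SE 0.54), and 0.08 without STING ECKO 2. Efna1, a lipid-anchored ligand of Epha2, was at 82.5 and 136 CPM against 77.1 and 89.0, with a log2 fold change of 0.39 (SE 0.36) that became -0.0039 without STING ECKO 2. None of the 3 passed (adjusted p = 1.00, edgeR quasi-likelihood test).

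Other ephrins were below 20 CPM. Efnb1, a transmembrane ephrin on the X chromosome (99136130 to 99148991, plus strand), was at 9.54 and 15.5 CPM in the STING ECKO libraries and 0.878 and 8.15 in those of WT. The genotypes did not overlap, WT 3 was far below the rest, and the log2 fold change was 1.47 (SE 1.42), with 0.62 to 3.84 as libraries were left out. Efnb3 was even, at 4.94 to 7.48 CPM. Efna4 was at 2.34 and 8.96 CPM against 7.67 and 9.40, and 10.5% of its exon bases overlap an antisense gene. Efna5, a lipid-anchored ligand of A-type Eph receptors (chromosome 17, 62604184 to 62881317, minus strand), had 0 reads in each STING ECKO library but 83 and 27 in those of WT. STING ECKO was at least 17.1-fold lower over 3 reads per library, a bound on counting error; its unadjusted p was 0.0208 and its adjusted p 0.977 (edgeR quasi-likelihood test). Efna2 went the other way, with 296 and 5 reads in the STING ECKO libraries and 1 and 0 in those of WT. The excess was 317-fold (counting interval 56.5 to 12565), and STING ECKO 1 held nearly all of it.

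The A-type Eph receptors differed from library to library. Epha4, a receptor for both ephrin classes (ENSMUSG00000026235, chromosome 1, 77367185 to 77515088, minus strand), was at 26.0 and 45.5 CPM in the STING ECKO libraries and 64.7 and 52.0 in those of WT. The genotypes did not overlap, and the log2 fold change was -0.71 (SE 0.49, adjusted p = 1.00, edgeR quasi-likelihood test). Epha2 was at 38.6 and 11.5 CPM against 23.8 and 35.3, and Epha5 at 4.03 and 20.3 against 14.3 and 8.05. Epha7 had 383 and 2 reads against 213 and 215, so STING ECKO 2 alone nearly lacked it. Epha1 had 128 reads in WT 3 and at most 14 elsewhere, and Ephb2 had 48 and 9 reads against 3 and 73. Of the receptors listed in 1 table, Epha3 had 4 reads in STING ECKO 1 and 89 in WT 3, Ephb1 15 and 206, Ephb6 29 and 0, and Ephb3 0 in STING ECKO 2 and 85 in WT 5.

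Robo4 had the smallest unadjusted p among the guidance genes of at least 20 CPM. This endothelial Robo (ENSMUSG00000032125, chromosome 9, 37401897 to 37415115, plus strand) was at 579 and 554 CPM in the STING ECKO libraries and 914 and 820 in those of WT, from 10615 to 19774 reads. Both STING ECKO libraries were below both WT libraries, 566 ± 17.6 against 867 ± 66.8 CPM (SD, n = 2 each), a ratio of 0.653. The log2 fold change was -0.61 (SE 0.17, unadjusted p = 0.0151, adjusted p = 0.977, edgeR quasi-likelihood test), and -0.68 to -0.53 as libraries were left out. In DESeq2 its adjusted p was 0.0762. The sum of the 16 endothelial markers was 32459 and 30312 CPM against 32512 and 31965, with overlapping genotypes, and Cldn5 and Slc2a1 held most of it. Singly, 6 of these markers had a log2 fold change above 0 and 10 below. The genotypes did not overlap in 3 markers higher and 4 lower in STING ECKO, beside 15.4% and 19% of all genes tested. In a bulk sample, fewer cells of a type and less RNA per cell cannot be told apart.

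The neural Robos and their ligand were low. Robo1 was at 1.04 and 9.60 CPM in the STING ECKO libraries and 9.15 and 1.69 in those of WT, Robo2 had 125 and 0 reads against 1 and 46, and Slit2, a ligand of both, had 0 and 22 against 13 and 175. High and low libraries fell in different places for each. Unc5b (ENSMUSG00000020099, chromosome 10, 60762593 to 60831581, minus strand), the endothelial netrin receptor, was at 453 and 536 CPM against 489 and 364, overlapping, with a log2 fold change of 0.22 (SE 0.23). Its ligand Ntn1 was at 10.2 and 2.88 CPM against 5.78 and 7.96. Unc5d had 184 reads in STING ECKO 1 and 4 in WT 3, Ntng1 10 and 3, and Ntng2 0 in STING ECKO 2 and 41 in WT 5. Of the exon bases of Ntng2, 14.0% overlap another gene on the same strand. Smaller overlaps with genes on the opposite strand include those of Sema4c (7.27%) and Epha1 (6.01%).

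The 2 deposited tables share no library, so each gives its own difference. STING ECKO was on the same side of WT in both for 21 of the 40 genes (52.5%), 7 higher and 14 lower, beside 50.1% of all genes tested. Among the 15 guidance genes with a mean of at least 20 CPM it was 11 (73.3%, against 3467 of 6929 genes at that level), and among the 25 below it 10 (against 50.2% of all genes there); the level was chosen after the values were seen. In log2 CPM, Robo4 differed by -0.66 and -0.57, Sema6a by -0.49 and -0.56, Sema6d by -0.20 and -0.20, and Plxna1 by 0.53 and 0.54. Ephb4 differed by 0.03 and 1.22, so 1 table carried its change. The authors' deposited tables marked 26 of 48 guidance genes in the first (40.9% of all genes) and 27 of 46 in the second (52.1%). Of the 17 marked in both of the authors' deposited tables, 1 was higher in both, 5 were lower in both and 11 had opposite directions. These marks compare single libraries. The same split over all genes was not made, so it cannot be read as particular to guidance genes.

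**Figure D4:**
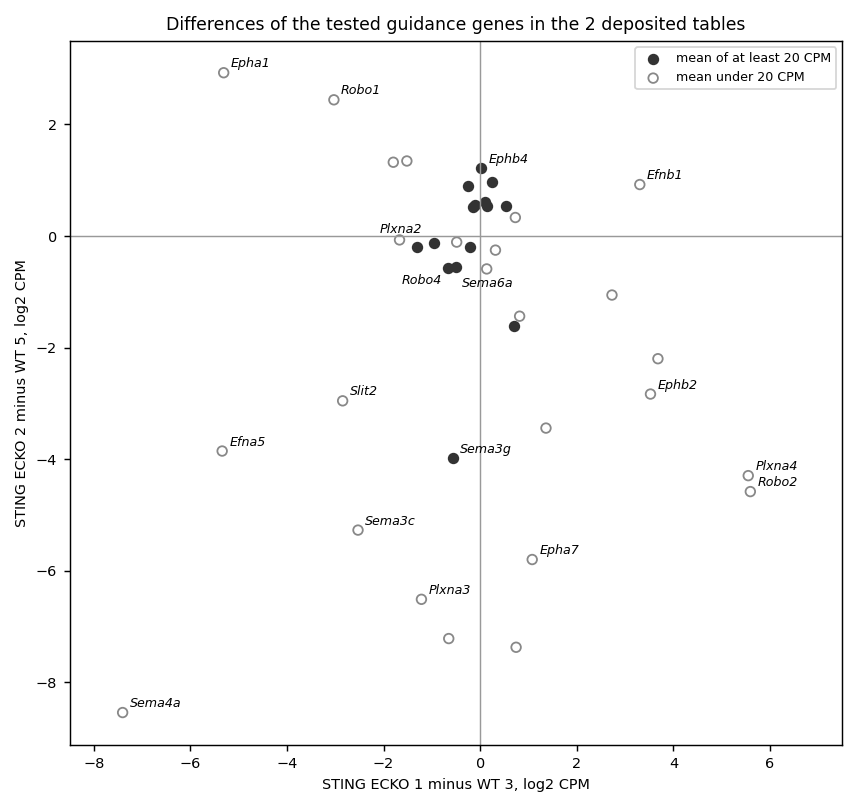
Difference in log2 CPM (prior count 2) of STING ECKO 1 minus WT 3 (x axis) and STING ECKO 2 minus WT 5 (y axis) for the 40 genes; filled points have a mean of at least 20 CPM. Robo4 and Sema6a lie just below 0 on both axes, Sema4a far below 0 on both, and Plxna4, Robo2 and Epha1 in quadrants of opposite sign.

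The spread among libraries followed the level. Among guidance genes of at least 20 CPM the highest library was 1.28 to 34.3 times the lowest (median 1.76, all genes at that level 1.96), the largest being Sema3g. Of the 28 below that level, 12 (42.9%) had 0 reads in at least 1 library, as did 35.1% of all genes below it. STING ECKO 2 had 7 of the 43 genes at 0 reads (Efna5, Plxna3, Robo2, Sema4a, Sema4d, Sema5a and Sema5b), STING ECKO 1 had 3, and WT 3 and WT 5 had 2 each. The median absolute log2 CPM difference of the 40 genes was 1.05 between the STING ECKO libraries and 0.71 between the WT libraries, and 0.39 to 1.27 over the 4 pairs across genotypes. Differences within a genotype were thus of the size of those between them.

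Genes that act with the guidance receptors were described by 3 further lists. Of 19 semaphorin and plexin partners tested, 0 passed, with 10 above 0 and 9 below; the neuropilin Nrp1 was at 463 and 366 CPM in the STING ECKO libraries and 371 and 469 in those of WT, and Nrp2 at 85.6 and 95.1 against 43.8 and 140. Dpysl2, which relays semaphorin signals to microtubules, was at 774 and 537 CPM against 795 and 624, and Gipc1, an adaptor of Plxnd1, at 350 and 468 against 299 and 375. Of 19 ephrin and Eph partners, 0 passed, with 9 above 0 and 10 below. Sdcbp (syntenin), which binds ephrin tails, was at 1052 and 1134 CPM against 1095 and 949, and Adam10, a protease that cleaves ephrins, at 400 and 305 against 233 and 324. Rgs3, which binds ephrin-B tails, was at 203 and 266 CPM against 283 and 210, and Tiam1, an exchange factor for Rac, at 176 and 123 against 129 and 124.

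Of 15 Slit, Robo and netrin partners, 0 passed the edgeR quasi-likelihood test and 1 passed in DESeq2, with 8 above 0 and 7 below. Ablim1, an actin-binding protein, was at 1508 and 1259 CPM in the STING ECKO libraries and 1921 and 1470 in those of WT, Pxn (paxillin) at 162 and 153 against 140 and 121, Srgap2 at 123 and 140 against 122 and 175, and Vasp at 126 and 117 against 117 and 101. Only Pxn and Vasp of these 4 had both STING ECKO libraries above both WT libraries, and Vasp barely so (117.3 CPM in STING ECKO 2, 116.9 in WT 3). Of the 15, the genotypes did not overlap in 3 higher and 2 lower in STING ECKO, beside 15.4% and 19% of all genes tested. Srgap3, picked for its values, had no STING ECKO reads at all and was at 8.23 and 13.1 CPM in WT, at least 71.0-fold lower over 3 reads per library. Dpysl5, a neuronal relative of Dpysl2 likewise picked, was at 0.164 and 0.412 CPM against 8.69 and 11.8. The neuron markers Syn1 and Gap43, also picked for their values, had 0 or 1 read in the STING ECKO libraries and 228 to 399 in WT. Map2 had 437 and 136 reads against 566 and 149, and Rbfox3 118 and 317 against 26 and 185. Of 13 neuron markers, 12 had a log2 fold change below 0. The genotypes did not overlap in 6, all lower in STING ECKO, beside 19% of all genes tested. Of 11 astrocyte and radial glia markers, 10 had a log2 fold change below 0, and the median of the list was -3.07. The genotypes did not overlap in 7 of them, all lower in STING ECKO, beside 19% of all genes tested. Gja1 and Sox9, the highest of the list by mean CPM, had log2 fold changes of -0.15 and 0.12. Of the neuron markers, 0 passed the edgeR quasi-likelihood test and 2 passed in DESeq2. Of the astrocyte and radial glia markers it was 0 and 1, beside 0.691% of all genes in DESeq2. The part of neuronal or glial RNA in the differences of Srgap3 and Dpysl5 was not tested. Nor was it tested for Efna5, Slit2 and the other low guidance genes.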

How the data were processed

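RNA of the 4 libraries was counted per gene. Per the submitters' processing notes the tools were TopHat2 2.0.12, Bowtie2 2.2.3 and HTSeq 0.6.0, on mm9; which strand setting and annotation were used was not given in the sources used here. Positions were those of GRCm38 for 44 of the 51 genes in GENCODE M21, and printed coordinates are the tables' own. Per the file headers, the deposited count columns hold whole reads. The authors' normalized columns are CPM. The authors' fold column is a ratio of CPM values, their log2 column its log2, and their deposited p-value columns compare 1 library with 1 library. A table lists a gene with 0 reads in one library only where the other had at least 5, so a gene listed in 1 table was compared within it.

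The 14100 genes of both tables were fitted in R 4.3.3 with edgeR 4.0.16, by its quasi-likelihood test after TMM scaling and filterByExpr (minimum count 10), with adjustment over 13365 genes at 0.05. DESeq2 1.42.0 and limma 3.58.1 (voom) were alternatives, with other scalings, filters, a block by table and leaving out each library. Exact binomial counting intervals (95%) and floors of 3 reads per library cover counting error only.

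Named genes were the 12 highest by mean CPM, up to 8 per direction with the smallest p among tested genes whose genotypes were apart, with a mean of 1 CPM or more, and genes with 0 reads in a genotype and at least 5 in each library of the other; 18 met this. Other genes are given by values. From the partner lists the 4 highest were named. Members and lists were chosen with earlier results of these data known. The box set in capitals in the promoters, and the coding-gene share beside it, were chosen after the first motif matches were seen.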

Additional observations from a re-analysis of the deposited data

How the results depend on the processing

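The edgeR quasi-likelihood count of 0 calls, for all genes and for the guidance genes, was the same under other scalings, filters, limma-voom, genes of either table, the block by deposited table and each left-out library. DESeq2 called 87 genes and 1 guidance gene, and the edgeR likelihood ratio test 33 and 1; the guidance gene was Sema4a in both (log2 fold change -11.46 and -12.08, adjusted p 2.74e-06 and 0.000315). The median log2 fold change of the tested guidance genes was -0.21 with all libraries and -0.52 to 0.026 as each was left out, the lowest without STING ECKO 1 and the highest without WT 5; without STING ECKO 2 it was -0.0051. Without 1 library, 24 to 33 guidance genes had genotypes that did not overlap, since a genotype then has 1 library. Those fits take their spread from the genotype that keeps both libraries. Signs turned without STING ECKO 2 for Efna1 (-0.0039, up to 0.71 without other libraries), Plxnb2 (-0.16, up to 0.54) and Plxnd1 (-0.027, up to 0.64), and without WT 3 for Plxna2 (0.061, down to -1.10). The cause was not tested. As libraries were left out, log2 fold changes ranged from -1.16 to -0.36 for Epha4, 0.14 to 1.08 for Plxnb1, 0.03 to 0.45 for Unc5b and -0.28 to -0.12 for Sema6d. The labels give the genotypes no shared replicate number, so the sole pairing was by deposited table; with that block the guidance median was -0.27. Depth limits the low genes: for Plxna3, with 3 reads in all in STING ECKO, counting error alone left a ratio anywhere from 20.5 to 297.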
